A study of Mus musculus with 6 samples.

Results

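The G1 cyclins and their kinases are the genes that carry a mammalian cell from growth factor signals to the start of DNA replication, and 9 of them were followed here: Ccnd1, Ccnd2, Ccnd3, Cdk4, Cdk6, Ccne1, Ccne2, Cdk2 and Cdc25a. They were taken by symbol, as every transcript probe of the array that is annotated to a single one of these genes, which gave 12 of 34967 probes and 9 of 18069 genes. The genes and the lists below were chosen with earlier results of these data known, so counts over them are descriptions and not tests. A probe was tested if all 3 arrays of one genotype or the other flagged its spot as good. Of the 12 probes 11 met this, among 19575 in all.

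The cells were mouse embryonic fibroblasts at early passage, cultures of connective tissue cells grown directly from embryos, and each of the 6 cultures came from its own embryo. In 3 cultures, named C4, C3 and B1, the Ing1 locus was inactivated by a gene-trap cassette, an inserted sequence that interrupts the transcript of the gene it lands in. The other 3, named H2, H3 and I2, were from wild-type littermates. No treatment is given for either genotype. Ing1 encodes a PHD-finger protein that binds a methylated histone mark and works with Sin3 and histone deacetylases. Embryonic age is not given in the sources used here, and no leading letter of a culture name occurs in both genotypes, so what the letter stands for and the genotype cannot be told apart. Each culture's RNA was hybridised to its own 1-colour CodeLink array, and the values are normalized intensities, in multiples of the median transcript probe of that array. A gene with several tested probes was represented in the counts by the one with the highest mean log2 intensity; beyond that choice, no probe's level was set against another's.

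D-type cyclins are made when growth factors reach the cell. They bind Cdk4 or Cdk6, and these kinases begin to phosphorylate the retinoblastoma protein, which otherwise holds E2F transcription factors in check. Released E2F switches on the E-type cyclins, which activate Cdk2, while Cdc25a removes inhibitory phosphates from Cdk2, and the cell then starts replication. In fibroblasts this sequence is the route by which serum starts a division cycle. RNA levels of these genes say nothing of kinase activity, which is set largely by protein turnover, inhibitors and phosphorylation.

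The Ing1 probe read 1.38, 0.93 and 1.39 in C4, C3 and B1 and 11.7, 11.4 and 11.1 in H2, H3 and I2. That is 9.4-fold lower in the deficient cultures (log2 difference -3.23 ± 0.19, SE; limma, adjusted p = 0.000287), so the arrays match their labels at this gene. Good flags covered 55.5% to 62.1% of transcript probes. Array H3 stood apart from its group: across tested probes it correlated with the deficient arrays at r = 0.961 to 0.972 and with the other wild-type arrays at 0.960 to 0.975. All 16 fibroblast marker genes on the array carried a good flag on at least 1 array, with summed intensities of 1489 to 1617 in deficient and 1234 to 1627 in wild-type cultures. Markers of macrophages and blood summed to 52.7, 161 and 84.1 in C4, C3 and B1 and to 55, 36.6 and 25.1 in H2, H3 and I2, with 11 of 13 flagged good on some array and Ptprc and Fcgr1 on none. Endothelial markers summed to 8.99 to 10.6 against 8.41 to 10.8, with 6 of 9 flagged good on some array and Pecam1, Cdh5 and Cldn5 on none. Fewer cells of a type and less RNA per cell cannot be told apart in these bulk samples.

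Of the 9 genes, 4 rose in the Ing1-deficient cultures: Ccnd1 and Ccne1, which encode cyclins D1 and E1, Cdk2, the partner of cyclin E, and Cdk6, a partner of the D cyclins. Cdk6 counts among them through 1 of its 3 probes. Of its other probes, GE41727 did not pass and GE1407369 was called lower (limma, adjusted p = 0.037). The mean of the 3 gave a log2 difference of 0.09 (limma, adjusted p = 0.755). No gene fell by the probe that represents it, and 5 did not pass the test at an adjusted p of 0.05. Over all 11893 genes with a tested probe, 7.63% were called, 6.02% as higher and 1.61% as lower. The 2 genotypes did not overlap in 7 of the 9 genes, each with the deficient cultures higher; groups did not overlap in 33.7% of all genes, 23.7% with deficient cultures higher. The median log2 difference over the 9 genes was 0.65, against 0.07 over all genes. The difference was above 0 in 8 of the 9 (57.3% of all genes), and 7 had an unadjusted p under 0.05 (28.2% of all genes). Non-overlapping groups with deficient cultures lower were found in 0 of the 9 and in 10% of all genes. Ccnd1 and Ccne2 could enter these counts only through the deficient arrays, since not all of their wild-type spots were flagged good. Among the 7 members with good spots on all 6 arrays, refitted over such probes alone, 3 rose (6.72% of 9709 genes), none fell, and 5 had non-overlapping groups with the deficient cultures higher (24.1% of those genes).

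The 4 calls were close to the threshold. Leaving out C4, C3, B1, H2 or I2 left 0 of the 9 genes called by limma, with 5 to 8 of them at an unadjusted p under 0.05, while calls over all probes dropped from 1286 to between 5 and 390. Leaving out H3 gave 5 called genes, Ccnd2 joining the 4, but calls over all probes also rose, to 2725. In that fit 10.6% of all genes were called higher. Each of the 4 differences kept its sign without any 1 array, but with non-overlapping groups no left-out array could have changed it. These fits also have fewer arrays to estimate the spread. The selection stated in the labels, here the methods' t-test at 0.05 with a ratio over 2 or under 0.5, took 2 of the 11 tested member probes, that of Ccnd1 as higher and the Cdk6 probe GE1407369 as lower, and 3.1% of all tested probes.

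**Figure D1:**
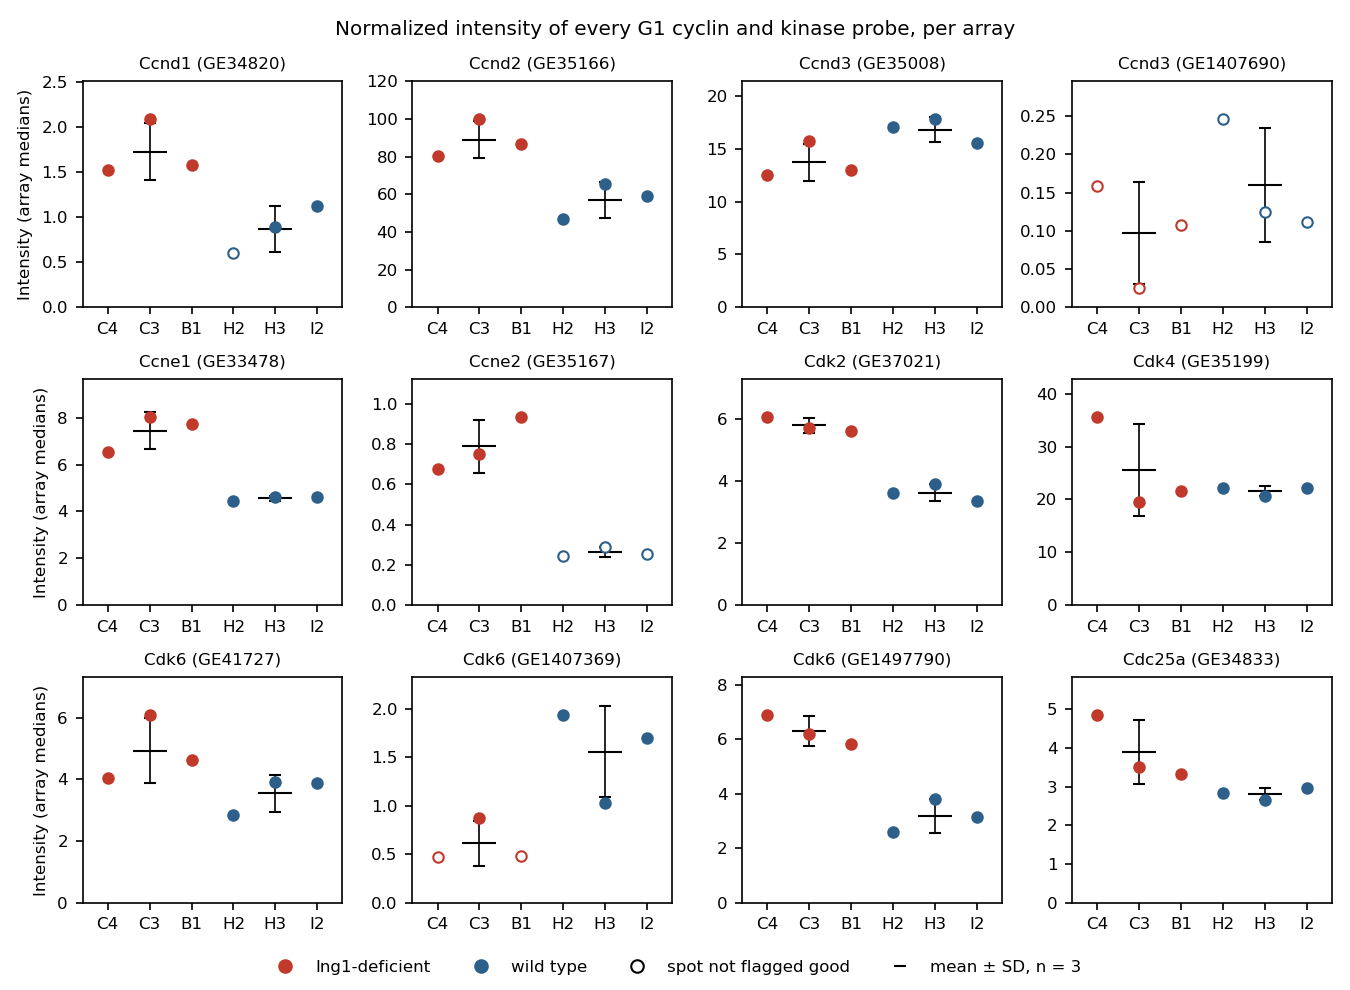
Normalized intensity, in array medians on a linear axis from 0, of each of the 12 probes on the 6 arrays, with red points for Ing1-deficient and blue for wild-type cultures, open points where the spot was not flagged good, and bars for the mean ± SD of 3 cultures. The red points lie above every blue one for Ccnd1, Ccnd2, Ccne1, Ccne2, Cdk2 and Cdc25a and for 2 of 3 Cdk6 probes, and C4 alone stands high for Cdk4.

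RefSeq promoter windows on GRCm38.p6 were at hand for 6 of the 9 genes, and the 250 bases before the transcription start were searched on both strands for 3 short motifs. These were TTTNNCGC, a form of the site E2F factors bind, CACGTG, the E-box bound by Myc and related factors, and GGGCGG, the GC box bound by Sp1. The windows of Ccne1, Cdk2 and Cdk6, whose RNA rose by at least 1 probe, are shown with that of Cdk4, which did not pass, so that genes of both kinds can be compared; they lie at chr7:38107491-38107740 (minus strand), chr10:128705052-128705301 (minus), chr5:3343643-3343892 (plus) and chr10:127063285-127063534 (plus). Each is written 5′ to 3′ along the gene, and capitals mark every match to any of the 3 motifs in either orientation.
Ccne1: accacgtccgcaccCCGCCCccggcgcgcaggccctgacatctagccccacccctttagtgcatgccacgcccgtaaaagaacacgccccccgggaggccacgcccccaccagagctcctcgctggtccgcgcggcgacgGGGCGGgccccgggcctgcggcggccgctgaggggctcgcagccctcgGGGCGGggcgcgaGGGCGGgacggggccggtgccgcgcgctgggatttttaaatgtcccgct
Cdk2: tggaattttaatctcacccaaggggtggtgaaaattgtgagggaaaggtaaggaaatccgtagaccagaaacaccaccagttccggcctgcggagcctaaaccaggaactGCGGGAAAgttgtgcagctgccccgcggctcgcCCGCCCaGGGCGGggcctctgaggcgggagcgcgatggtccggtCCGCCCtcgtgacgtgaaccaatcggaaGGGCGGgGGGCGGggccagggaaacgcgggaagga
Cdk6: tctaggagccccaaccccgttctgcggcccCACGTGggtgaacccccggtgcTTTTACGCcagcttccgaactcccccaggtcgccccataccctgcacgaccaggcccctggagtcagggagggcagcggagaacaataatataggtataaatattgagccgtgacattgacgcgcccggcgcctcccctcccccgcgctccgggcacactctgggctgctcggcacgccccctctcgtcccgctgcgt
Cdk4: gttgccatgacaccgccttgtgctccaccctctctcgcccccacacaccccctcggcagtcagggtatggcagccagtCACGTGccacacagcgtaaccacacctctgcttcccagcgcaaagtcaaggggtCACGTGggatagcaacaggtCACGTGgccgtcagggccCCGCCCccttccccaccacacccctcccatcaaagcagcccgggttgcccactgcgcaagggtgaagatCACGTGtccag

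The E2F-type motif occurs in 4.28% of the 32851 windows of this length, and it was found once each in Cdk2 (as GCGGGAAA, 140 bases before the start), Cdk6 (TTTTACGC, 198 bases before) and Cdc25a (TTTGGCGC, 67 bases before). The E-box is in 6.02% of windows, with 4 matches in Cdk4 and 1 in Cdk6. The GC box is in 32.7% of windows, with 4 matches in Ccne1, 5 in Cdk2, 1 in Cdk4, 2 in Cdc25a that overlap each other, and 2 and 1 in the 2 start sites listed for Ccnd3. The motif content therefore differs among genes that rose by at least 1 probe. The Ccne1 window has only the GC box of these 3 motifs. The window of Cdk6, whose direction depends on the probe, has the E2F-type motif and the E-box but no GC box. A match is a stretch of letters, with any base allowed at N, and not a measured binding site.

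Among the D cyclins, Ccnd1 rose, Ccnd2 lay higher without passing the test, and Ccnd3 lay lower without passing. Ccnd1 is the D cyclin most closely tied to growth factor signalling in fibroblasts. Its probe GE34820 (NM_007631) read 1.52, 2.09 and 1.58 in C4, C3 and B1 and 0.597, 0.89 and 1.12 in H2, H3 and I2, with the H2 spot flagged as low signal. All deficient cultures were above all wild-type ones, with C3 highest and H2 lowest. The means were 1.73 ± 0.315 and 0.869 ± 0.261 (SD, n = 3 each), a log2 difference of 1.02 ± 0.24 (SE; 95% interval 0.48 to 1.57), or 2.03-fold (limma, adjusted p = 0.0428). The adjusted p was 0.0426 without H3 and 0.0996 to 0.121 without any one of the others. At these intensities, not far above the floor of 0.57 under which values were set to that floor, normexp background correction cut the difference to 0.32 (adjusted p = 0.105) and a floor of 1.14 cut it to 0.59 (adjusted p = 0.122). Quantile normalization (0.0574), cyclic loess (0.0561) and a floor of 0.01 (0.0708) moved the adjusted p past the threshold with differences near the reported one.

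Ccnd2, a second D cyclin that can stand in for cyclin D1 in many cells, was read by probe GE35166 (NM_009829) at 80.6, 100 and 86.8 in the deficient and 46.9, 65.5 and 58.9 in the wild-type cultures. The genotypes did not overlap, and C3 was again highest and H2 lowest. The means were 89.1 ± 9.92 and 57.1 ± 9.42, and the log2 difference of 0.65 ± 0.18 (95% interval 0.25 to 1.05) missed the threshold (adjusted p = 0.0628). Ccnd2 passed without H3 (log2 difference 0.76, adjusted p = 0.034), with a variance trend and robust fitting (0.0472) and with array weights (0.0106). Without H3 and with array weights, calls over all probes also rose, from 1286 to 2725 and 4720. Ccnd2 did not pass with normexp (limma, adjusted p = 0.126), quantile normalization (0.181), cyclic loess (0.17) or the lower and higher floors (0.0864 and 0.126). It also missed the threshold with no filter on flags (0.239), with good flags on all 6 arrays (0.053) and without C4, C3, B1, H2 or I2 (0.107 to 0.183).

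Ccnd3, the third of the D cyclins, pointed the other way. Its probe GE35008 (NM_007632) read 12.5, 15.7 and 13 in the deficient and 17.1, 17.8 and 15.5 in the wild-type cultures, and the groups overlapped, since C3 lay above I2. The log2 difference was -0.30 ± 0.16 with an interval of -0.66 to 0.06 (adjusted p = 0.265). The second Ccnd3 probe, GE1407690 (AK020317), was flagged as low signal on all 6 arrays and was not tested, with means of 0.097 ± 0.0666 and 0.16 ± 0.0746. The intervals of Ccnd3 and of both other D cyclins did not overlap, but the difference between the genes was not tested.

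The kinase partners of the D cyclins gave no single picture. Cdk4 probe GE35199 (NM_009870) read 35.6, 19.5 and 21.6 in the deficient and 22.2, 20.6 and 22.1 in the wild-type cultures. C4 alone was high, and C3 was the lowest of all 6 arrays. The log2 difference was 0.19 ± 0.23 with an interval of -0.32 to 0.70 (adjusted p = 0.643), and without C4 it turned to -0.08 (adjusted p = 0.804). The means were 25.6 ± 8.74 and 21.6 ± 0.881, so the spread among deficient cultures came from 1 array.

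Cdk6 had 3 tested probes, and they disagreed. Probe GE41727, designed on the RefSeq mRNA NM_009873, read 4.05, 6.1 and 4.63 in the deficient and 2.86, 3.91 and 3.9 in the wild-type cultures, a log2 difference of 0.46 ± 0.21 that did not pass (95% interval 0.00 to 0.93, adjusted p = 0.19), although the groups did not overlap. Probe GE1497790, designed on the expressed sequence tag AI587972, read 6.9, 6.19 and 5.82 against 2.59, 3.81 and 3.15. Its log2 difference of 1.0 ± 0.18 (95% interval 0.59 to 1.41) was 2-fold and passed (adjusted p = 0.0271). This probe had the highest mean of the 3 and represents Cdk6 in the count of 4 genes.

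The remaining Cdk6 probe, GE1407369 on the tag BY183267, fell. It read 0.476, 0.878 and 0.485 in C4, C3 and B1, with C4 and B1 flagged as low signal, and 1.94, 1.03 and 1.7 in H2, H3 and I2. The groups did not overlap, but C3 and H3 lay close together. The log2 difference was -1.19 ± 0.27 (95% interval -1.80 to -0.59), 2.29-fold lower in deficient cultures with the low spots at the floor (adjusted p = 0.037). With this probe, 1 of the 11 tested probes was called lower and 4 higher, against 1.63% and 4.94% of all tested probes (6.57% in either direction). The lower call concerns a probe that entered the test only through the wild-type arrays, where it was brighter. The mean of the 3 Cdk6 probes gave a log2 difference of 0.09 (adjusted p = 0.755), so a direction for Cdk6 as a gene depends on the probe. Where on the Cdk6 transcript each tag lies, and on which strand, was not examined here. Without one array, the adjusted p of GE1497790 ran from 0.00777 (H3 left out) to 0.12 (I2), and that of GE1407369 from 0.00805 (H3) to 0.147 (I2). The first passed only without H3 and the second without H3 or C3 (0.0465). With a floor of 1.14 neither passed (adjusted p = 0.0793 and 0.314), and GE1407369 then had a log2 difference of -0.45 and with normexp one of -0.38.

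Both E-type cyclins were higher in every deficient culture than in any wild-type one. Ccne1 encodes cyclin E1, the activator of Cdk2 at the start of S phase. Its probe GE33478 (NM_007633) read 6.54, 8.04 and 7.72 in C4, C3 and B1 and 4.44, 4.62 and 4.6 in H2, H3 and I2, so that the wild-type cultures lay close together and well below the lowest deficient one. The means were 7.44 ± 0.79 and 4.56 ± 0.098, a log2 difference of 0.70 ± 0.15 (95% interval 0.36 to 1.04), or 1.63-fold (adjusted p = 0.0348). The adjusted p was 0.0314 without H3 and 0.0722 to 0.143 without any one of the others. It was also past 0.05 with normexp (0.0625), quantile normalization (0.0609), cyclic loess (0.0532) and floors of 0.01 (0.0567) and 1.14 (0.0555).

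Ccne2 encodes cyclin E2, a close relative with the same partner. Its probe GE35167 (NM_009830) was flagged good on all 3 deficient arrays, at 0.677, 0.753 and 0.936, and as low signal on all 3 wild-type arrays, at 0.244, 0.289 and 0.255. The wild-type cultures therefore gave only a bound. Measured against the dimmest good spot of each wild-type array, Ccne2 was at least 1.9-fold higher in the deficient cultures. That bound rests on levels below the floor of 0.57. With normexp the log2 difference was 0.27 and did not pass (limma, adjusted p = 0.0902). In the fit, where low values stand at the floor, the log2 difference was 0.46 ± 0.17 (95% interval 0.08 to 0.83) and did not pass (adjusted p = 0.124). With a floor of 0.01 it was 1.58 and passed (adjusted p = 0.0235), and with a floor of 1.14 it was 0.00, so the fitted value of this dim probe is set by the floor.

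Cdk2, the kinase of the E cyclins, rose, with cultures of each genotype close together. Probe GE37021 (NM_016756) read 6.07, 5.72 and 5.63 in the deficient and 3.61, 3.89 and 3.35 in the wild-type cultures. The means of 5.8 ± 0.233 and 3.62 ± 0.273 differed by 0.68 ± 0.15 on the log2 scale (95% interval 0.35 to 1.01), or 1.61-fold (adjusted p = 0.0338). Left-out arrays gave adjusted p-values from 0.0221 (H3) to 0.152 (I2), with log2 differences of 0.63 to 0.74. Quantile normalization (adjusted p = 0.0513) and a floor of 0.01 (0.0559) also ended the call, and normexp kept it at a log2 difference of 0.40.

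Cdc25a, the phosphatase that activates cyclin-Cdk2 complexes, read 4.86, 3.5 and 3.33 against 2.83, 2.65 and 2.96 on probe GE34833 (NM_007658). All deficient cultures were above all wild-type ones, but C4 was well above the rest. The means were 3.9 ± 0.836 and 2.81 ± 0.156, and the log2 difference of 0.45 ± 0.18 (95% interval 0.04 to 0.86) did not pass (adjusted p = 0.156). It was 0.28 without C4.

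**Figure D2:**
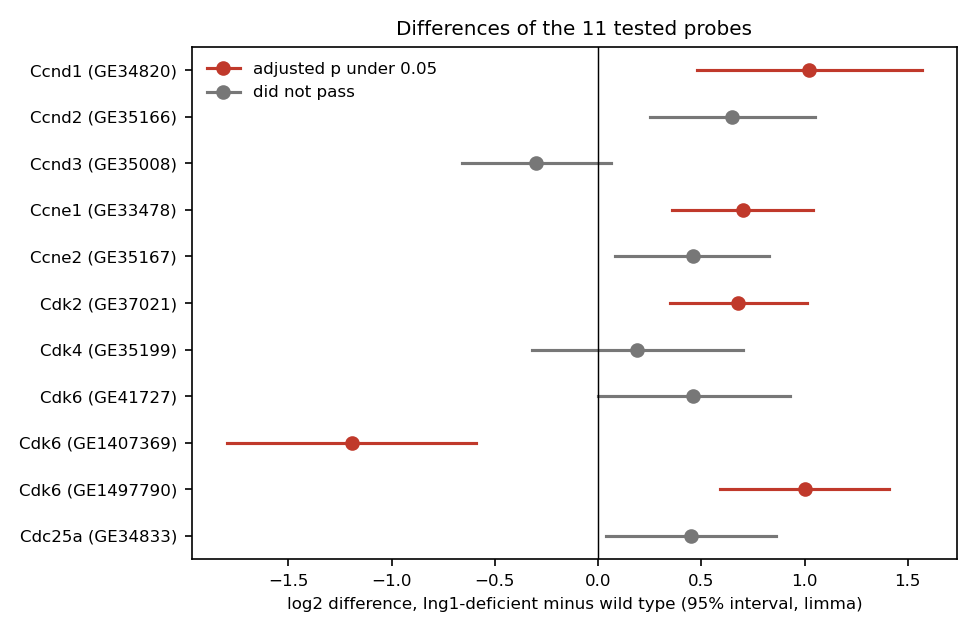
Log2 difference, Ing1-deficient minus wild type, of the 11 tested probes, with the 95% interval from limma and red where the adjusted p was under 0.05. Ccnd1, Ccne1, Cdk2 and 1 Cdk6 probe lie to the right in red, 1 Cdk6 probe lies to the left at -1.19, and the interval of Ccne2 is held down by the floor.

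The members did not follow one order among the deficient cultures. Relative to each gene's mean over the 6 arrays on the log2 scale, Ccnd1, Ccnd2 and Ccne1 were highest in C3, at 0.80, 0.50 and 0.47. Cdk2, Cdk4, Cdk6 (GE1497790) and Cdc25a were highest in C4, at 0.41, 0.62, 0.63 and 0.56. Ccne2 was highest in B1, at 0.49. In the wild type, H2 was lowest for Ccnd1 (-1.01), Ccnd2 (-0.59) and Cdk6 (-0.78). The median over the 9 genes was nearly level within a genotype, at 0.34, 0.32 and 0.30 in C4, C3 and B1 and -0.34, -0.23 and -0.23 in H2, H3 and I2.

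Lists of S-phase, mitotic and macrophage genes were less even within a genotype. The median deviation of 20 S-phase genes was 0.79 in C4 but 0.17 and 0.21 in C3 and B1, and that of 19 mitotic genes was 0.46 in C4 and -0.11 and -0.06 in C3 and B1. C4 was thus the culture in which replication genes, mitotic genes, Cdk4 and Cdc25a were all highest. The median of 8 tested macrophage and blood markers was 1.61 in C3, where Ccnd1, Ccnd2 and Ccne1 peaked, 0.59 in B1 and 0.02 in C4. In H2, H3 and I2 it was -0.28, -0.83 and -1.19, so every deficient culture lay above every wild-type one. The part of cell makeup and of the share of dividing cells in the member differences was not tested.

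**Figure D3:**
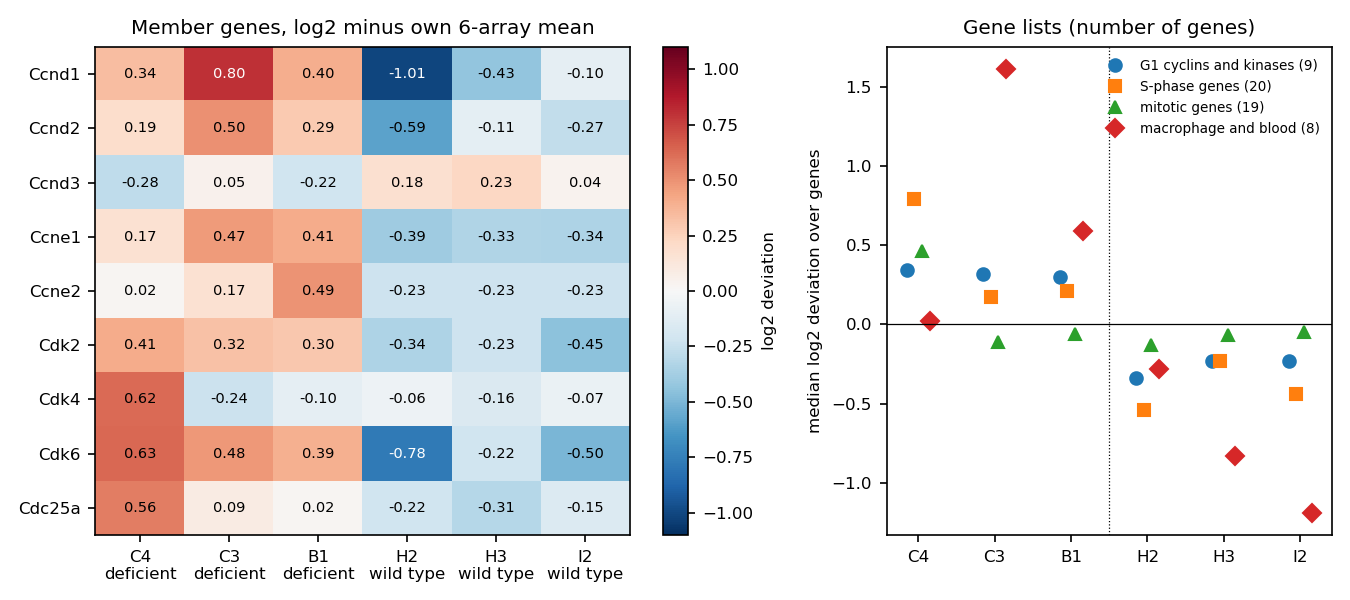
Left, the log2 value of each member gene minus its own mean over the 6 arrays, by array, as colours and numbers. Right, the median of such deviations over the genes of 4 lists on each array, with the wild-type arrays right of the dotted line. The median of the 9 member genes stays between 0.30 and 0.34 in deficient arrays. That of the S-phase list peaks in C4 (0.79) and that of the macrophage list in C3 (1.61).

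Genes around the members in the cycle machinery were counted in the same fit, in lists also chosen with earlier results of these data known. Among other cyclins, 1 of 15 tested genes rose and none fell, with a median log2 difference of -0.06. The one was Ccnc, whose product works with Cdk8 in the Mediator complex, at 6.95, 5.6 and 6.32 against 2.42, 3.67 and 2.62 (log2 difference 1.14 ± 0.19, adjusted p = 0.0245). Of 12 other cyclin-dependent kinases none passed in limma and 3 had an unadjusted p under 0.05 (median 0.22). The lowest p was that of Cdk13, a kinase of transcription elongation, with a log2 difference of 0.52 (adjusted p = 0.0967).

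The inhibitors of the pathway and the factors that process its kinases gave no call with all arrays. Of 8 CDK inhibitors and pocket proteins none was called by limma and 4 had an unadjusted p under 0.05, with a median of -0.26 and 3 of 8 above 0. Rb1, the retinoblastoma protein that the D cyclin kinases phosphorylate, had the lowest p, with 2.02, 2.69 and 2.97 against 3.48, 3.33 and 3.89 (log2 difference -0.49, adjusted p = 0.128). These values are from 1 of the 2 Rb1 probes on the array. Among 18 phosphatases, chaperones and turnover factors of the kinases none was called and 6 had an unadjusted p under 0.05 (median 0.22). Skp1, a subunit of the ubiquitin ligase that marks cyclin E for destruction, came nearest, at 134, 110 and 106 against 82, 70.3 and 75.2 (log2 difference 0.62, adjusted p = 0.0533). Without H3 both lists held calls: 1 inhibitor or pocket protein rose and 1 fell, and 2 of the other list rose and 1 fell. In that fit 10.6% of all genes were called higher, and 971 of 19575 tested probes lower. Normexp gave 1 higher call among the phosphatases, chaperones and turnover factors, with 2.72% of all genes called higher.

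Upstream of the D cyclins, 1 of 19 tested mitogen-side regulators fell and none rose (median 0.17). That was Fosl2, an AP-1 factor, which was flagged as low signal on all deficient arrays and read 1.42, 0.97 and 1.85 in the wild type. It was at least 3.0-fold lower in the deficient cultures, measured against the dimmest good spots of C4 and B1. On C3 its own value of 0.456 was used, since it lay above the dimmest good spot there (0.404). The fit, with low values at the floor of 0.57, gave a log2 difference of -1.26 and an adjusted p of 0.0263, for a gene that entered the test only through the wild-type arrays. Downstream, 2 of 10 E2F and DP factors rose and none fell (median 0.29). Tfdp1, the DP partner of E2F proteins, read 11.1, 10.9 and 9.36 against 4.52, 6.14 and 5.88 (log2 difference 0.93 ± 0.17, adjusted p = 0.028). E2f2 read 5.33 in C4, with C3 and B1 at 2.14 and 2.59, and 1.5, 0.883 and 1.34 in H2, H3 and I2 (1.35 ± 0.34, adjusted p = 0.0473). Without C4, B1, H2 or I2 none of the other cyclins, mitogen-side regulators or E2F and DP factors was called by limma. In those 3 lists, 3 to 5 genes each then had an unadjusted p under 0.05. Without C3, 1 of the other cyclins was called and 0 in both remaining lists. Without H3, 1 of the other cyclins rose and 2 fell, 2 mitogen-side regulators rose and 2 fell, and 1 of the E2F and DP factors rose and 1 fell. Of all genes, 10.6% were then called higher, and 971 of 19575 tested probes were called lower. With normexp, quantile or cyclic loess normalization 1 E2F or DP factor rose, with 2.72%, 2.56% and 2.81% of all genes called higher.

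Of 20 tested S-phase genes 9 rose and none fell, with a median of 0.81. The 4 with the lowest p were Fen1, Cdc6, Pole and Mcm3. These encode a flap endonuclease, an origin licensing factor, the catalytic subunit of a replicative polymerase and a helicase subunit. Cdc6 and Pole entered the test only through the deficient arrays, where they were higher, since their H2 spots were not flagged good. Cdc6 was counted by 1 of its 2 probes on the array. Without C4, B1, H2 or I2 the count was 0 by limma, with 13 or 14 genes at an unadjusted p under 0.05 and medians of 0.59 to 0.92; it was 3 without C3, where 1.88% of all genes were called higher, and 11 without H3, where 10.6% were. Normexp, quantile normalization and cyclic loess each called 3 of the 20, with 2.72%, 2.56% and 2.81% of all genes called higher. None of 19 mitotic genes was called and 3 had an unadjusted p under 0.05; their median was 0.17, and 0.00 without C4. Racgap1, a factor of cytokinesis, had the lowest p (log2 difference 0.63, adjusted p = 0.0746). With all arrays and the reported processing, 6.02% of all genes were called higher and 1.61% lower.

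Genes that resembled the 4 called members across the 6 arrays were many. For each, the 3 most alike of 13456 tested probes with 1 symbol are named, by Pearson correlation of log2 values, a description in which the genotype difference itself carries much of the likeness. Ccnd1 was followed most closely by Atp9b (r = 0.998), Glce (0.995) and Tnfrsf23 (0.995). Ccne1 was followed by Kcnmb1 (0.996), Ext1 (0.996) and Msrb1 (0.993), and Cdk2 by Ebf3 (0.997), Urod (0.997) and Zswim4 (0.996). The Cdk6 probe GE1497790 was followed by Foxb1 (0.999), Mrpl55 (0.998) and Zfp706 (0.998). Probes with r above 0.95 numbered 89 for Ccnd1, 145 for Ccne1, 398 for Cdk2 and 686 for Cdk6.

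**Figure D4:**
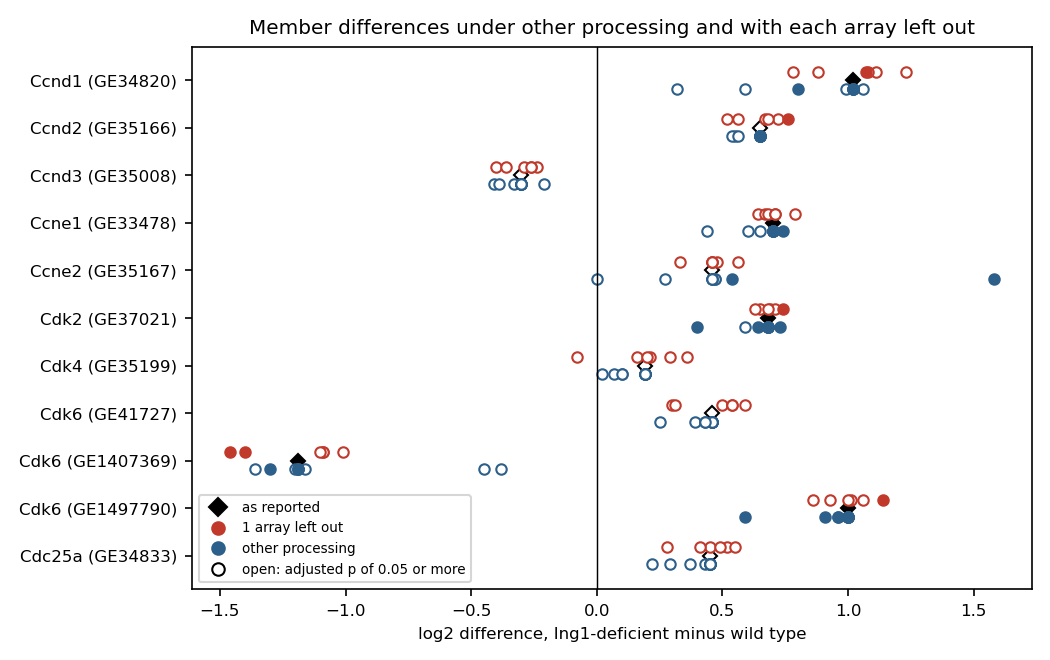
Log2 difference of each tested probe as reported (black diamond), with each array left out (red) and under other processing (blue; the letter block and the methods' t-test are not drawn), filled where the adjusted p was under 0.05. The points of every probe stay on one side of 0 except Cdk4, which is at -0.08 without C4, and Ccne2, which is at 0.00 with a floor of 1.14.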

How the data were processed

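Per the labels, total RNA of 6 cultures was labelled with biotin and hybridised to 1-colour CodeLink arrays, and the spots were quantified with CodeLink Expression Analysis 4.1.0.29054, named in the file headers. The deposited normalized intensity is each spot's mean less its local background median, scaled so that unmasked transcript probes have a median of 1 on every array, worked out from the values; the authors' series table holds the same intensity (217362 of 217362 values equal). Other deposited scanner columns (spot mean, background, flags) served the background alternative and the filter. Genome build is not given in the sources used here.

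Values under 0.57, the median over arrays of the 1st percentile of good-flag probes, were set to 0.57 and log2 was taken. The 19575 transcript probes flagged good throughout at least 1 genotype were compared with limma 3.58.1 in R 4.3.3 (two-sided, Benjamini-Hochberg over all tested probes, threshold 0.05), checked on simulated data. Differences are deficient minus wild type, ± is an SE after a difference and an SD (n = 3) after a mean. Where all spots of a genotype were flagged low, the fold is a lower bound. The number of arrays limits the precision.

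Symbols came from the platform annotation (21615 probes with 1 symbol, 681 with several, 12671 with none; 21487 matched by gene ID to GRCm38.p6). Of several tested probes, the one with the highest mean log2 value stood for a gene. Named were all members with every probe, Ing1, up to 4 called genes per list with the lowest p or else the 1 with the lowest p, and the 3 most alike probes. The members and lists were chosen with earlier results of these data known. Marker lists were fibroblast, macrophage and blood, endothelial, epithelial and neural. Alternatives were background by normexp (offset 50), cyclic loess or quantile normalization, the series table, floors of 0.01 and 1.14, no flag filter or good flags on all 6 arrays, weighting of arrays, a robust fit with trend, a random block for the leading letter, each array left out, the mean of a gene's probes, and the test that the labels name, called the methods' t-test.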

Additional observations from a re-analysis of the deposited data

How the results depend on the processing

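Counts of calls are given for all tested probes, member genes and member probes, in that order, against 1286, 4 and 5 as reported (limma). They were 576, 2 and 2 with normexp, 738, 1 and 1 with quantile normalization, 750, 2 and 2 with cyclic loess, 275, 2 and 2 with a floor of 0.01, and 191, 1 and 1 with a floor of 1.14. With no filter on flags 20 probes and 0 members were called in limma (4644 probes at an unadjusted p under 0.05), and the methods' t-test after Benjamini-Hochberg called 7 probes and 0 members. Without adjustment, and with its ratio limits, that t-test called 606, 1 and 2. A good flag on all 6 arrays gave 1041, 3 and 3. Array weights gave 4720, 6 and 7, and trend with robust fitting 1471, 5 and 6. Leaving out 1 array gave 5 to 2725 probes, 0 to 5 member genes and 0 to 6 member probes; the lowest probe counts were without B1 (5), I2 (17), H2 (24) and C4 (52), then C3 (390), and the highest was without H3. The mean of each gene's probes left 3 member genes, without Cdk6.

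The leading letter as a random block called 12903 probes, 9 member genes and 11 member probes. Its estimated correlation was -0.886, so those p-values were not used. No paired analysis was made, because the sample titles name no litter or pairs and the genotypes share only 1 replicate number. Of the calls as reported, 75.2% were higher, and 60.7% with quantile normalization. Cdk4 changed sign without C4 (-0.08; 0.36 at the highest among left-out arrays). Of the 11 probes, the other 10 kept their direction in every alternative, except that Ccne2 was at 0.00 with a floor of 1.14. Where the groups do not overlap, leaving out 1 array could not have changed the direction. The causes were not tested. Ccne2, and 1 probe each of Cdk6 and Ccnd3, are limited by signal near background. Ccnd1 also lies near the floor, and its log2 difference dropped from 1.02 to 0.32 with normexp and to 0.59 with a floor of 1.14.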

Other observations

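Markers of lineages other than fibroblasts and macrophages were read in the same fit. Of 6 tested neural markers 2 rose, Snap25 and Tubb3, and none fell (median log2 difference 0.50), with summed intensities of 15.1 to 20.2 in deficient and 12.4 to 17.9 in wild-type cultures; 7 of 9 carried a good flag on some array, and Nefl and Nefm on none. Of 5 tested epithelial markers 1 fell, Dsp, and none rose (median 0.07), with sums of 8.13 to 10.6 and 9.19 to 12.2. None of 4 tested endothelial markers was called by limma, and 0 had an unadjusted p under 0.05. Of 8 tested macrophage and blood markers C1qb, Mrc1 and C1qa rose (median log2 difference 1.35, 8 above 0). Of 16 fibroblast markers Lum and Thy1 rose (median 0.29, 13 above 0). No marker of either list fell. Mrc1 and Tubb3 entered the test only through the deficient arrays, where they were higher, since their H2 and H3 spots were flagged as low signal. Snap25, Tubb3 and Dsp have 2 probes each on the array and were counted by 1. Of all genes 6.02% were called higher and 1.61% lower. These marker calls rested on most arrays: without B1, H2 or I2 limma called 0 in each of the 5 lists, with 0 to 7 genes of a list at an unadjusted p under 0.05, and without C4 only 1 macrophage marker. Without C3, 2 macrophage markers, 1 neural and 1 epithelial were called, and without H3, 3 macrophage, 4 fibroblast, 2 neural and 1 epithelial. Of all genes, 1.88% were called higher without C3 and 10.6% without H3. Of the 19575 tested probes, 85 and 971 were called lower in the same order. No fibroblast marker was called with normexp, quantile or cyclic loess normalization (3 to 6 at an unadjusted p under 0.05); macrophage calls were 0, 2 and 2 and neural calls 1, 2 and 2 in the same order.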
